A study of Rattus norvegicus with 4 samples.

Results

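The silencing of *RbFox2* was followed here in 5 genes of cell adhesion and cell junctions, 2 that were higher and 3 that were lower. They were *Svep1* (ENSRNOG00000033110), *Cxadr* (ENSRNOG00000001557), *Itga8* (ENSRNOG00000016538), *Sspn* (ENSRNOG00000001807) and *Gja1* (ENSRNOG00000000805), 5 of the 30454 genes in the count tables, together with 1 annotated transcript each of *Svep1* (ENSRNOT00000047200), *Cxadr* (ENSRNOT00000050701) and *Gja1* (ENSRNOT00000001054), the 3 of 54852 transcripts that could be paired with one of the genes by name. They were picked by name with their fold changes in this comparison already known, so their gene and transcript values are described and not tested. The cells were A7R5, a smooth muscle line from embryonic rat aorta, transfected for 72 hours with a pool of siRNAs targeting *RbFox2* or with a scrambled negative control pool of 4 siRNAs. Total RNA was read by Iso-Seq, in which PacBio long reads of cDNA cover whole transcripts, in 2 libraries per condition, and nothing in the labels says whether the 2 come from separate cultures. The labels' treatment text also mentions a siRNA against RhoBTB1, whereas the titles name *RbFox2* alone.

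Cells of the arterial wall hold on to the matrix through integrins, heterodimers of an α and a β chain that link matrix proteins to the actin cytoskeleton at focal adhesions. The dystrophin-glycoprotein complex makes a second such link, between laminin outside and actin inside. Gap junctions, channels built of connexins, join the cytoplasm of neighbouring cells, and adhesion molecules of the immunoglobulin family hold the membranes of neighbouring cells together. RbFox2 is an RNA-binding protein best known as a regulator of alternative splicing. Svep1 is a large secreted matrix protein that binds integrin α9β1. *Itga8* encodes integrin α8, which pairs with β1 to bind matrix ligands and is abundant in smooth muscle. Cxadr is the coxsackievirus and adenovirus receptor, an immunoglobulin-family molecule of cell-cell junctions. *Sspn* encodes sarcospan, a tetraspan-like membrane protein of the dystrophin- and utrophin-glycoprotein complexes, and *Gja1* encodes connexin 43.

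*Rbfox2* itself, which checks the labels, dropped from 243 and 250 counts under control siRNA to 70 and 78 under RbFox2 siRNA. Its log2 fold change was -1.78 (standard error 0.185), with an edgeR quasi-likelihood p of 5.16e-05 after Benjamini-Hochberg adjustment. Gene counts summed to between 4072385 and 4617706 per library and transcript counts to between 2419794 and 2738439. Levels are given in CPM, counts divided by the sum of the same table in the same library and scaled to 1e+06. A gene or transcript is called where its adjusted p in the test over all features was under 0.05 and its fold change was over 1.5. Across the 9069 genes tested, 3.12% were called higher and 4.37% lower, and the median log2 fold change was -0.01. Calls depended on single libraries, since 1059 in place of 679 genes were called without RbFox2 siRNA replicate 2.

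The pattern was a split among these adhesion and junction genes. *Svep1* and *Cxadr* were 3.21- and 2.47-fold higher after RbFox2 siRNA, whereas *Sspn*, *Gja1* and *Itga8* were at 0.228, 0.512 and 0.533 times their control level. The same thresholds called all 5, 2 higher and 3 lower, which follows from how they were picked. In each of the 5, both libraries of one condition lay on the same side of both libraries of the other. Among all genes tested, 18.8% had both RbFox2 siRNA libraries above both control libraries and 30.2% had them below.

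**Figure D1:**
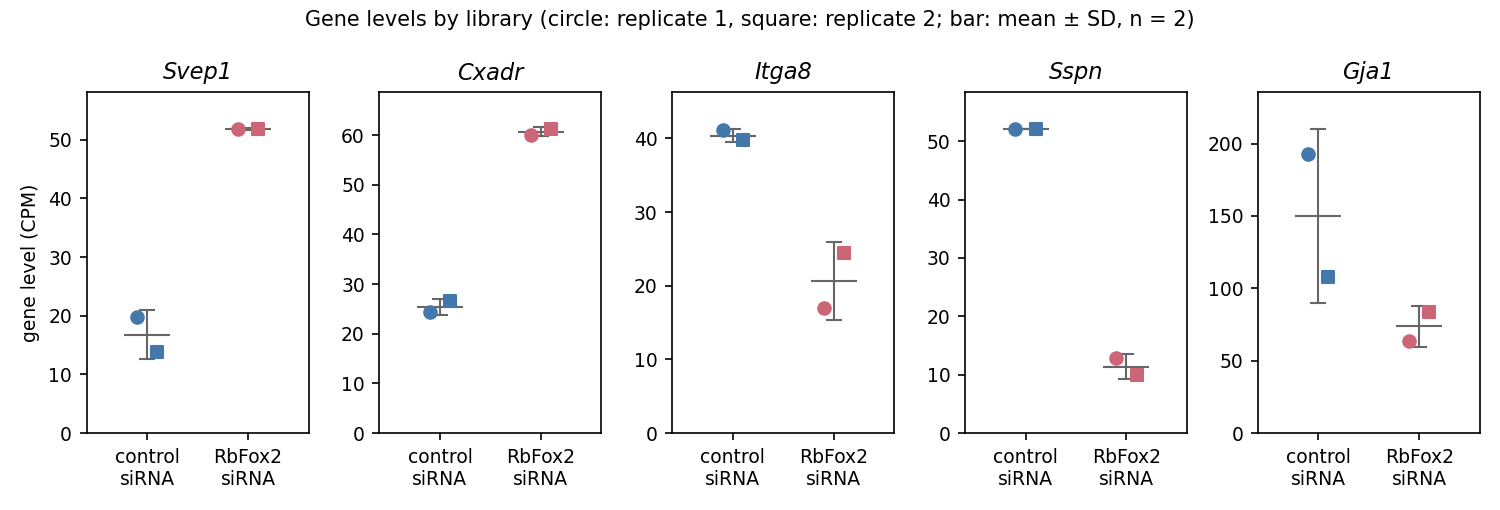
Gene levels in CPM of the 5 genes in each library, with the mean and SD of the 2 libraries per condition; each panel has its own axis from 0. *Svep1* and *Cxadr* sit higher after RbFox2 siRNA and *Itga8*, *Sspn* and *Gja1* lower, with the widest spread in *Gja1* with control siRNA (193 and 108 CPM).

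The sequences just upstream of the annotated starts are shown for the genes that moved in opposite directions, so that their start regions can be set side by side. They are RefSeq sequences of build GRCr8, matched by symbol for 4 of the 5 genes, while the counts were made on mRatBN7.2. Each is the 200 bases before the start, at chr5:77783293-77783492 on the minus strand for *Svep1*, chr17:80410634-80410833 on the minus strand for *Itga8*, chr4:180627682-180627881 on the plus strand for *Sspn* and chr20:36302364-36302563 on the plus strand for *Gja1*. The annotated span of *Sspn* begins further upstream than this start. Written 5′ to 3′ along the gene, capitals mark matches on either strand to the TGANTCA (the AP-1 motif), to the TATA box TATAAA, to CATTCC (the MCAT motif) and to CANNTG (the E-box).
Svep1: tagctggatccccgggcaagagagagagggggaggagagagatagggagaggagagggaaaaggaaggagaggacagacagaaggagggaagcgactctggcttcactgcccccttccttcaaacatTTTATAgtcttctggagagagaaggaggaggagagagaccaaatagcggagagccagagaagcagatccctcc
Itga8: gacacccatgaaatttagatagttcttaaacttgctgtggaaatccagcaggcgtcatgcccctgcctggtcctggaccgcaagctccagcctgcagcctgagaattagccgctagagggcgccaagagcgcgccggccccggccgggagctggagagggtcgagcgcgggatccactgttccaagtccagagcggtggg
Sspn: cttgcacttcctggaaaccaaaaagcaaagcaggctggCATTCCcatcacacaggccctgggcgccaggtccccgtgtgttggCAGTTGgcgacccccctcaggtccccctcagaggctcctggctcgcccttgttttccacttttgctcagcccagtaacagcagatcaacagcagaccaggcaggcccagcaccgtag
Gja1: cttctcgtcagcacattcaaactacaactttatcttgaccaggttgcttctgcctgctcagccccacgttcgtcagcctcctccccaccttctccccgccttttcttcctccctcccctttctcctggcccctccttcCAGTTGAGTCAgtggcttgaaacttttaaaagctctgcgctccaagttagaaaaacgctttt

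In windows from 250 bases before to 50 after the start, *Gja1* held the AP-1 letters, TGAGTCA, beginning 58 bases upstream of the start, with an overlapping E-box from base 62. AP-1 letters were in 7.33% of all 33469 such windows in the table. *Sspn* held CATTCC, the core of the MCAT motif bound by TEAD factors, from base 162, as did 14.2% of windows, and E-boxes from base 230, outside the printed bases, and from base 117, a motif that 72.1% of windows hold. *Svep1* held TATAAA on the opposite strand from base 73, also a motif of 14.2% of windows. In the *Itga8* window none of these letters were found. The GC box (GGGCGG), in 33.1% of all windows, and the CArG box, the serum response factor motif of smooth muscle genes, in 1.64%, were found in none of the 4. No motif was found in all 3 of *Itga8*, *Sspn* and *Gja1*. These matches describe letters only.

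Among the genes that were higher, *Svep1* had 86 and 56 counts with control siRNA and 229 and 239 counts with RbFox2 siRNA. These were 16.8 ± 4.24 CPM and 51.8 ± 0.129 CPM (SD, n = 2 each). The 2 RbFox2 siRNA libraries were nearly equal, and the spread lay in the controls, at 19.8 and 13.8 CPM. The log2 fold change was 1.68 (standard error 0.199). It was 1.95 without control siRNA replicate 1, the library with the higher control value, and fell to 1.48 at the lowest when other libraries were omitted. Among the 4041 genes with a positive estimate and 10 or more counts in each library, *Svep1* ranked at 3.

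*Cxadr* had close replicates in both conditions. Its counts were 106 and 108 with control siRNA and 265 and 283 with RbFox2 siRNA, or 25.4 ± 1.54 and 60.7 ± 0.835 CPM (SD, n = 2 each). The log2 fold change was 1.31 (standard error 0.174) and stayed between 1.23 and 1.41 with each library left out in turn. It ranked at 5 among the same 4041 genes.

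Among the genes that were lower, *Sspn* had the lowest ratio to its control level. It had 227 and 212 counts with control siRNA, which were 52.1 CPM in both libraries, and 57 and 46 counts, or 12.9 and 9.96 CPM, with RbFox2 siRNA. On the log2 scale the change was -2.13 (standard error 0.203), between -2.34 and -1.91 with 1 library left out. Of 4213 genes with a negative estimate and the same minimum of counts, *Sspn* ranked at 3.

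The integrin chain gene *Itga8* went from 179 and 162 counts to 75 and 113, which were 40.4 ± 0.945 and 20.7 ± 5.28 CPM (SD, n = 2 each). The controls were close to each other, and the RbFox2 siRNA libraries differed, at 17.0 and 24.5 CPM. The log2 fold change was -0.91 (standard error 0.206), and it moved to -0.68 or -1.15 when RbFox2 siRNA replicate 1 or replicate 2 was omitted. *Itga8* ranked at 161 of the 4213 genes.

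*Gja1* varied most between replicates. It had 840 and 438 counts with control siRNA and 280 and 387 with RbFox2 siRNA, or 193, 108, 63.5 and 83.8 CPM. The conditions did not overlap, but the lower control library was nearer to the higher RbFox2 siRNA library than to the other control. The log2 fold change was -0.97 (standard error 0.231). Without control siRNA replicate 1 it was -0.51, under the 1.5-fold cutoff, and without control siRNA replicate 2 it was -1.30. Its rank was 125 of the 4213 genes with a negative estimate.

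**Figure D2:**
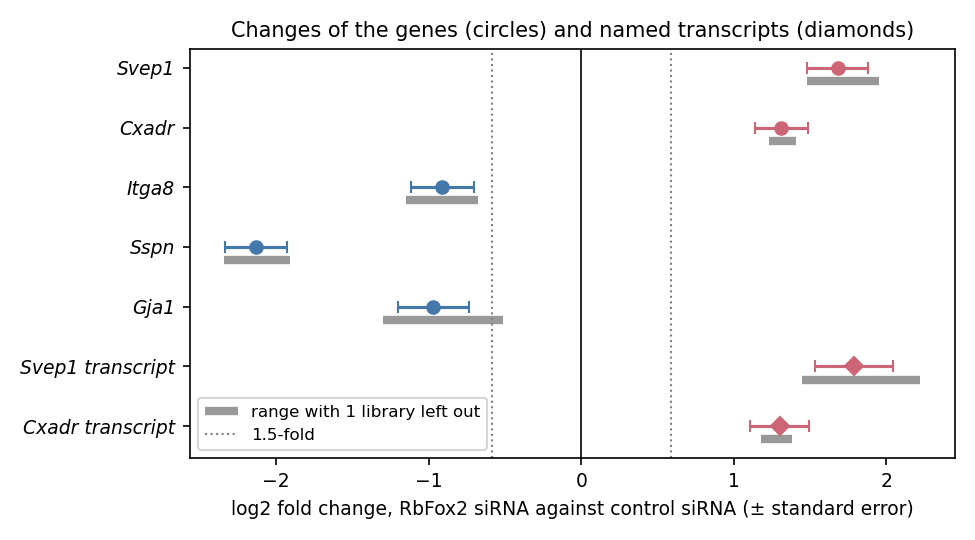
Log2 fold changes of RbFox2 siRNA against control siRNA for the 5 genes (circles) and the *Svep1* and *Cxadr* transcripts (diamonds), with standard errors, the range over the fits with 1 library left out (grey bars) and the 1.5-fold cutoff (dotted lines). The range of *Gja1* alone crosses the cutoff, at -0.51; the *Gja1* transcript is not drawn because it had 0 counts with control siRNA.

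Ratios of counts taken within a library do not depend on scaling between libraries. They separated the conditions for each of the 6 pairs of a gene that was higher with a gene that was lower. That separation was fixed in advance, because the levels of each gene already did not overlap between conditions, so it adds no support. The steepest of the 6 was *Svep1* per *Sspn*, at 0.379 and 0.264 with control siRNA and 4.02 and 5.20 with RbFox2 siRNA. *Cxadr* per *Sspn* went from 0.467 and 0.509 to 4.65 and 6.15. *Svep1* per *Itga8*, a matrix protein gene against an integrin gene, went from 0.480 and 0.346 to 3.05 and 2.12, and *Cxadr* per *Gja1*, both genes of cell-cell contacts, from 0.126 and 0.247 to 0.946 and 0.731.
The ratio of the 2 higher genes, *Svep1* per *Cxadr*, changed less, from 0.811 and 0.519 in the controls to 0.864 and 0.845 after RbFox2 siRNA. Both control ratios still lay below both RbFox2 siRNA ratios. The 3 lower genes did not keep a fixed ratio either. *Sspn* per *Itga8* went from 1.27 and 1.31 to 0.760 and 0.407, while *Gja1* per *Itga8* overlapped between conditions, at 4.69 and 2.70 against 3.73 and 3.42. These ratios use the same counts by which the genes were picked.

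At the transcript level, the *Cxadr* and *Svep1* transcripts moved with their genes, and the *Gja1* transcript moved against its gene. The transcript tables hold reads assigned to 1 annotated transcript, and over all genes they held 58.5 to 59.4 counts per 100 gene counts in each library. Of the 7703 transcripts tested, 1.66% were called higher and 2.62% lower. These 330 calls became 111 without control siRNA replicate 1, 153 without control siRNA replicate 2, 696 without RbFox2 siRNA replicate 2 and 127 in a test against the 1.5-fold threshold.

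The *Cxadr* transcript carried nearly the whole gene, with 104 and 108 counts with control siRNA and 263 and 283 with RbFox2 siRNA. Its share of the *Cxadr* gene counts was 98.1% and 100% with control siRNA (95% exact binomial intervals 93.4 to 99.8% and 96.6 to 100%) and 99.2% and 100% with RbFox2 siRNA (97.3 to 99.9% and 98.7 to 100%). Intervals here cover counting error only. Its log2 fold change was 1.3 (standard error 0.192), beside 1.31 for the gene.

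The *Svep1* transcript moved with its gene, from 68 and 36 counts to 184 and 190. Its log2 fold change was 1.79 (standard error 0.256), and it was 2.22 without control siRNA replicate 1. It held 79.1% and 64.3% of the *Svep1* gene counts with control siRNA and 80.3% and 79.5% with RbFox2 siRNA. The lowest share, 64.3% (95% exact binomial interval 50.4 to 76.6%), came from the control library with the fewest *Svep1* counts, and its interval overlapped that of the other control, 69.0 to 87.1%.

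The *Gja1* transcript went against its gene. It had 0 counts in both control siRNA libraries, where the *Gja1* gene received 840 and 438 counts, and 238 and 334 counts with RbFox2 siRNA, where the gene received 280 and 387. Its share of the gene was 85.0% and 86.3% with RbFox2 siRNA (95% exact binomial intervals 80.3 to 89.0% and 82.5 to 89.6%). With control siRNA it was 0 of 840 and 0 of 438 counts, for which the exact intervals reach up to 0.438% and 0.839%, and 3 counts would make 0.357% and 0.685%. In CPM of the transcript tables, the lower RbFox2 siRNA library, at 91.6 CPM, was at least 73.8-fold higher than the 1.24 CPM that 3 counts make in the smaller control library. *Gja1* gene counts outside the transcript numbered 840 and 438 with control siRNA and 42 and 53 with RbFox2 siRNA. No other transcript could be paired with *Gja1*, so where the control reads were assigned is not known here. The deposited tables come as 1 file per condition, so a difference between the counting of the 2 files cannot be told apart from a difference between the conditions. The *Gja1* transcript was 1 of 19 transcripts with 0 counts in both control libraries and at least 10 in both others, and 1 of 7 of these with a name whose gene was identified and had at least 10 counts in each control library.

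**Figure D3:**
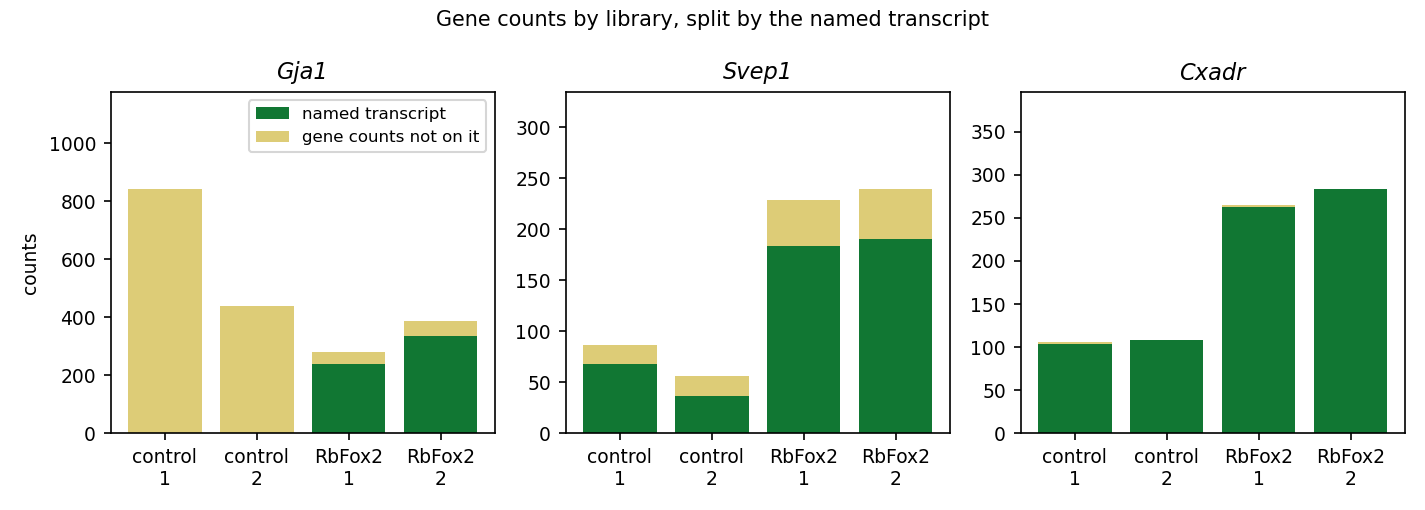
Gene counts in each library for *Gja1*, *Svep1* and *Cxadr*, split into counts on the named transcript (green) and counts of the gene that are not on it (yellow); each panel has its own axis. The *Gja1* transcript holds 0 of 840 and 438 counts with control siRNA and 238 of 280 and 334 of 387 with RbFox2 siRNA, while the *Cxadr* transcript holds nearly all counts in every library.

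Other genes of the same structures were taken from lists of 244 adhesion and junction genes, of which 36 could be identified by name and all 36 were tested. Of the 679 called genes, 656 had a known name, so at most 23 called genes could be list genes that were not identified. Of the 1726 named genes that were tested and not called, 1715 had an estimate above 0, so a list's direction cannot be read from the genes that were not called. Beside the 5 genes described above, 2 list genes were called higher, 6 were called lower and 23 were not called, in edgeR's quasi-likelihood fit of the whole gene table. The 8 called were 25.8% of the 31 tested, beside 27.5% called among all 2382 named genes tested. Without RbFox2 siRNA replicate 2, 6 were called higher, and the DESeq2 Wald test called 2 lower. At least 10 counts in every library, a filter that removes both higher genes, left 0 called higher of 26 tested in that edgeR fit, with 11 higher at an unadjusted p under 0.05 (42.3%, beside 31.8% of the 1876 named genes and 7.23% of all 8254 genes in that fit). Since names of genes that were not called were known almost only where estimates were above 0, the number of higher genes says nothing about the lists. For the same reason, the median log2 fold changes given below do not show a list's direction.

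**Figure D4:**
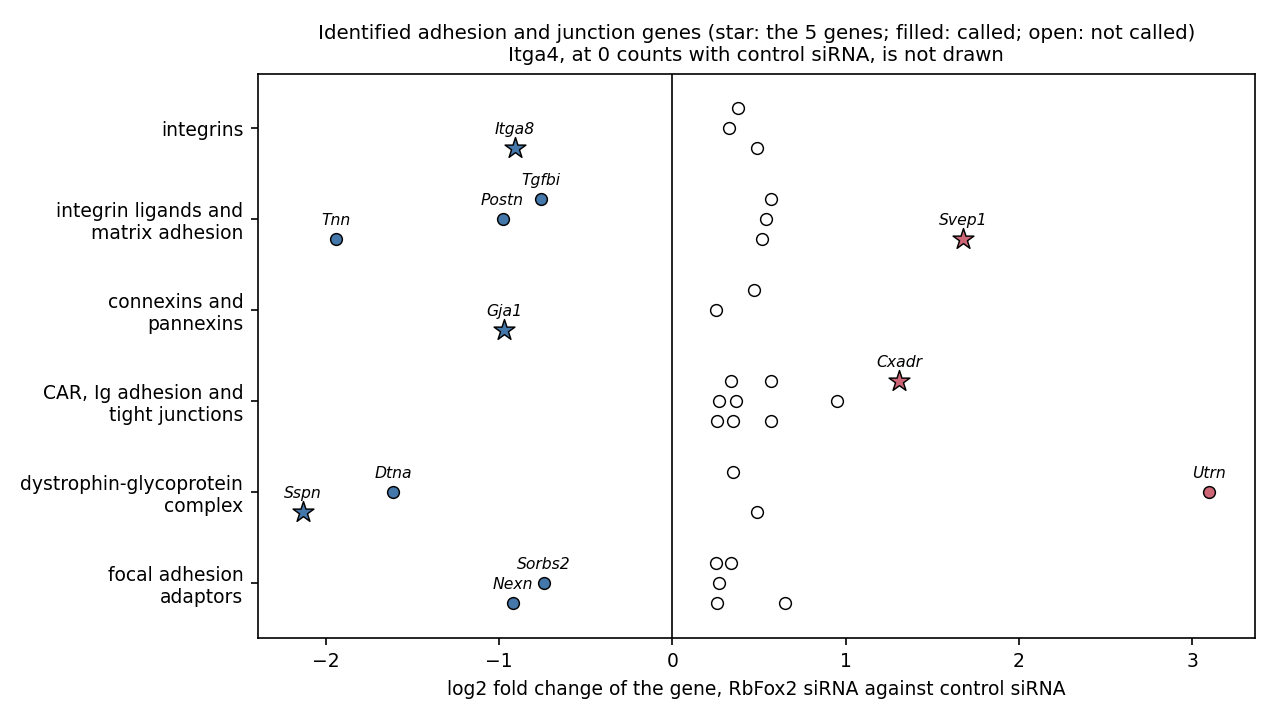
Log2 fold changes of the identified genes of 6 adhesion and junction lists, 1 point per gene, with the 5 genes of interest as stars, called genes filled and genes not called open. Called falls appear in 5 of the lists, in the integrins and connexins only through the picked *Itga8* and *Gja1*. Names of genes not called were known almost only for estimates above 0. *Itga4*, at 0 counts with control siRNA, is not drawn.

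The dystrophin-glycoprotein complex, to which sarcospan belongs, had 5 of 23 genes identified, 1 called higher, 2 lower and 2 not called, with a median log2 fold change of 0.35. The 2 lower were *Dtna* and *Sspn*, which was picked with its fall already known. Opposite to *Sspn* went *Utrn*, the gene of utrophin, the dystrophin relative that anchors the complex to actin. It went from 8 and 6 counts to 61 and 65 (edgeR adjusted p = 7.19e-05), by 3.10 on the log2 scale with a standard error of 0.335. Both control libraries lay under the filter level of 2.28 CPM, so *Utrn* was tested only because it was higher after RbFox2 siRNA. *Dtna*, α-dystrobrevin, a cytoplasmic partner of the complex, fell with *Sspn*, from 35 and 22 counts to 7 and 12 (log2 fold change -1.61, edgeR adjusted p = 0.0313). The DESeq2 Wald test did not call *Dtna* (adjusted p = 0.211), nor did edgeR without control siRNA replicate 1 (0.298) or RbFox2 siRNA replicate 1 (0.0737). *Pomgnt1*, an enzyme of dystroglycan glycosylation, was not called, at 199 ± 1.52 and 245 ± 51.1 CPM (SD, n = 2 each).

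Of 26 integrin genes, 5 were identified, with 1 called higher, 1 (*Itga8*) lower and 3 not called, at a median log2 fold change of 0.38. *Itgb1*, the β1 chain with which α8 pairs, was not called, at 258 ± 14.8 and 313 ± 27.5 CPM (SD, n = 2 each; log2 fold change 0.33, edgeR adjusted p = 0.173). *Itga4*, the α4 chain of receptors for fibronectin and Vcam1, had 0 counts in both control libraries and 53 and 42 with RbFox2 siRNA, at least 12.3-fold higher than the level of 3 counts (edgeR adjusted p = 5.41e-05). It passed the low-count filter, at 2.28 CPM, only through the RbFox2 siRNA libraries, so in that fit it was tested only because it was higher there. The fit without a filter on low counts also called *Itga4*, but from the same counts, so it adds no separate support.

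Among integrin ligands and matrix adhesion proteins, 7 of 40 were identified, 1 (*Svep1*) higher, 3 lower and 3 not called, with a median log2 fold change of 0.52. The 3 that fell are all secreted matrix proteins, as is Svep1, whose gene was higher. *Postn*, periostin, fell from 35085 and 27931 counts, or 7458.8 ± 849 CPM, to 16985 and 15756 counts, or 3632.2 ± 311 CPM (SD, n = 2 each; log2 fold change -0.98, edgeR adjusted p = 0.000865). *Tnn*, tenascin N, fell from 86 and 67 counts to 15 and 26 (log2 fold change -1.94, edgeR adjusted p = 0.00121). *Tgfbi*, a transforming growth factor-β-induced integrin ligand, fell from 231 and 241 counts to 163 and 125 (log2 fold change -0.76, edgeR adjusted p = 0.0409). The DESeq2 Wald test did not call *Tgfbi* (adjusted p = 0.0620), nor did edgeR without control siRNA replicate 2 (0.116) or RbFox2 siRNA replicate 2 (0.0955). *Fbln5*, the elastic fibre protein fibulin 5, was 1.43-fold higher, under the fold cutoff (edgeR adjusted p = 0.0377). 1 annotated fibronectin transcript, of the gene *Fn1* (ENSRNOT00000110905), rose from 452 and 418 counts to 1015 and 1007. The log2 fold change of this transcript was 1.16 (adjusted p = 0.000327 from edgeR's test on transcripts), while the *Fn1* gene was not identified. Of 5 tested transcripts of this list with a name, 2 were called higher, this one and the *Svep1* transcript. Among all transcripts tested, 1.66% were called higher, and names may favour called ones.

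Of 23 connexin and pannexin genes, 3 were identified, *Gja1* and 2 that were not called. *Gja5*, connexin 40, had 2015.4 ± 62.0 and 2314.4 ± 146 CPM (SD, n = 2 each; log2 fold change 0.25, edgeR adjusted p = 0.334). The median log2 fold change of the 3 identified connexins was 0.25. Of 51 genes of the Cxadr family, other immunoglobulin adhesion molecules and tight junctions, 9 were identified, and *Cxadr* was the 1 called, with 8 not called and a median of 0.37. *Cadm4*, a cell adhesion molecule of the same superfamily, had 341 ± 21.3 and 418 ± 3.73 CPM (SD, n = 2 each; edgeR adjusted p = 0.133). None of 39 cadherin, catenin and desmosome genes was identified at the gene level.

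Inside the cell, 7 of 42 focal adhesion adaptor genes were identified, 2 lower and 5 not called, with a median of 0.26. *Nexn*, the actin-binding protein nexilin, fell from 120 and 126 counts to 58 and 77 (log2 fold change -0.92, edgeR adjusted p = 0.0234). *Sorbs2*, an adaptor that binds vinculin, fell from 245 and 173 counts to 120 and 137 (log2 fold change -0.74, edgeR adjusted p = 0.0320). The DESeq2 Wald test called neither (adjusted p = 0.0701 and 0.0732). In edgeR, *Nexn* was not called without control siRNA replicate 2 (adjusted p = 0.102) or RbFox2 siRNA replicate 1 (0.0600), and *Sorbs2* not without control siRNA replicate 1 (0.441). *Tgfb1i1*, a paxillin relative, was not called, at 281 ± 5.89 and 324 ± 31.4 CPM (SD, n = 2 each). Among all 7703 transcripts tested, 1.66% were called higher. Names were known for 1126 of 54852 transcripts and may favour called ones, so a count among named transcripts does not describe this list. Of 9 tested transcripts of this list with a name, 3 were called higher, all of low counts. They were 2 of *Git2*, a scaffold that binds paxillin, and 1 of *Ptk2b*, a kinase related to focal adhesion kinase. The *Git2* transcript ENSRNOT00000096072 went from 4 and 6 counts to 72 and 77 (adjusted p = 1.71e-05 from edgeR's test on transcripts), ENSRNOT00000108942, also of *Git2*, from 3 and 6 to 20 and 35 (0.0104) and the *Ptk2b* transcript ENSRNOT00000030036 from 3 and 7 to 24 and 21 (0.0331). All 3 were under the transcript filter level of 3.89 CPM in both control libraries and were tested only because of their RbFox2 siRNA counts. The DESeq2 Wald test did not call ENSRNOT00000108942 (0.0900) or the *Ptk2b* transcript (0.285), and neither did edgeR without control siRNA replicate 1 (0.198 and 0.453), nor, for *Ptk2b*, without control siRNA replicate 2 (0.0818).

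The study's supplement lists several smooth muscle markers as expressed in A7R5 cells, among them *Acta2*, *Tagln* and *Myh11*. By the names known here, smooth muscle identity could be checked with 2 of 12 marker genes, *Cnn1* and *Cald1*, both detected in every library. Their summed level was 2039.5 and 1680.1 CPM with control siRNA and 1047.6 and 1134.8 with RbFox2 siRNA, and so moved in the direction of *Itga8*, *Sspn* and *Gja1*. The 2 of 6 fibroblast markers identified, *Col1a2* and *Pdgfra*, also summed lower, at 5000.3 and 4410.4 against 2731.7 and 2830.0 CPM, almost all of it *Col1a2*, a gene smooth muscle cells also express. Names of genes that were not called were known almost only where estimates were above 0. A falling marker was thus identified almost only where it was called lower, so these sums do not show how either marker list moved. The 1 identified marker each of endothelial (*Tek*), epithelial (*Cldn4*) and leukocyte (*Cd68*) cells lay between 1.72 and 11.6 CPM in the 4 libraries and was not called, and none of 8 skeletal muscle markers was identified. The part of these shifts in the falls of the 3 genes was not tested, and fewer cells of a type cannot be told apart from less RNA per cell.

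The named genes most like each of the 5 were sought among 1875 others that had 10 or more counts in each library. Likeness was the Euclidean distance between log2 CPM profiles over the 4 libraries, each centred on its own mean. In all, 8254 genes met that count minimum, so most were not candidates. Names of genes not called were known almost only for estimates above 0, so candidates that fell were almost all called genes. The nearest to *Svep1* were *Akap8l* (distance 0.278) and *Cxcl12* (0.481), and the nearest to *Cxadr* were *Macf1* (0.122) and *Fez2* (0.165). *Itga8* lay nearest to *Aurkb* (0.055), with 490, 444, 215 and 309 counts in the same order of libraries, and *Larp4b* (0.133). *Sspn* was nearest to *Fkbp7* (0.267) and *Cpa4* (0.282), and *Gja1* to *Agfg1* (0.205) and *Ncapd3* (0.218). *Agfg1* shared the uneven controls of *Gja1*, with 366 and 227 counts against 136 and 171. With 4 libraries in 2 conditions, such profiles differ mainly in the size of the change and in the spread of 1 pair of replicates.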

How the data were processed

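Per the study's methods, the authors removed primers from full-length PacBio reads, aligned them to mRatBN7.2 and counted them with IsoQuant on Ensembl genes and transcripts. The deposited values are raw read counts without normalization, in 1 gene and 1 transcript table per condition. The tables list identifiers only. Names for 2382 genes and 1126 transcripts came from the study's Supplemental Dataset 2, held in part. Features were kept with filterByExpr, scaled by TMM and compared with edgeR 4.0.16 (glmQLFit and glmQLFTest, R 4.3.3), with Benjamini-Hochberg adjustment over all features tested. A standard error is the log2 fold change divided by the root of its F statistic. The test was tried on simulated counts with known changes. Alternatives used DESeq2 1.42.0, limma 3.58.1, other scalings and filters, a replicate block and leaving out each library. With 1 library left out, the lone library of its condition is assumed to vary like the other pair.

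The 5 genes, the lists and the tests were chosen with earlier results of these data known. List genes named are those called and the most abundant one not called in each list. The genes most like each of the 5 are the nearest 2 named genes by profile. 1 gene of the adhesion lists is not reported here. In RefSeq (GRCr8), *Itga8*, *Svep1* and *Cxadr* each overlap 1 long noncoding gene and *Sspn* 1 protein-coding gene, and whether the counting used strand is not given in the sources used here, so their reads may include some of these genes. Replicates differed by more than sampling noise, with a chi-square per degree of freedom of 4.50 for control siRNA and 8.71 for RbFox2 siRNA. The sum of each library's counts is taken as its depth. The labels do not state separate cultures, so p-values measure the spread between these libraries, which may be technical.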

Additional observations from a re-analysis of the deposited data

How the results depend on the processing

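The 5 genes and the *Svep1* and *Cxadr* transcripts kept their direction in the 8 other fits and with each library left out. Over the 8 fits, log2 fold changes lay between 1.62 and 1.70 for *Svep1*, 1.25 and 1.33 for *Cxadr*, -0.96 and -0.89 for *Itga8*, -2.19 and -2.11 for *Sspn* and -1.03 and -0.93 for *Gja1*. With each library left out in turn they lay between 1.48 and 1.95 for *Svep1*, 1.23 and 1.41 for *Cxadr*, -2.34 and -1.91 for *Sspn*, -1.30 and -0.51 for *Gja1*, 1.45 and 2.22 for the *Svep1* transcript and 1.18 and 1.38 for the *Cxadr* transcript. The fitted log2 fold change of the *Gja1* transcript, which depends on the prior count and is no bound, was 11.12, against 10.54 in the DESeq2 Wald test, 9.08 in voomLmFit, 7.13 with a prior count of 2 and 10.89 to 11.31 with 1 library left out. It could not be fitted under the filter of 10 counts per library.

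The 679 called genes became 328 with at least 10 counts in every library, 399 against the 1.5-fold threshold (glmTreat) and 337 without genes at 0 in 1 condition, the filters removing genes by construction, and 525 to 1059 with 1 library left out, the highest without RbFox2 siRNA replicate 2. The 330 called transcripts became 522 without a filter, 209 with the DESeq2 Wald test, 127 against the 1.5-fold threshold, and 111 to 696 with 1 library left out (111 without control siRNA replicate 1, 153 without control siRNA replicate 2, 696 without RbFox2 siRNA replicate 2). Of the list genes, 2 called higher became 0 under the 10-count filter and 2 to 6 with 1 library left out (6 without RbFox2 siRNA replicate 2), and 6 called lower became 2 with the DESeq2 Wald test and 4 to 5 with 1 library left out. For the Wald test and the left-out libraries the cause was not tested.

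A fit with the replicate block called 862 genes and 313 transcripts, with 3 list genes higher and 6 lower, and *Gja1* had a log2 fold change of -0.93. The labels do not say that the numbers pair the libraries, and libraries of the same number deviated from their condition means with a correlation of -0.09 over genes and -0.055 over transcripts. Depth limits the values of *Itga4*, *Utrn*, *Dtna* and the *Gja1*, *Git2* and *Ptk2b* transcripts, which had under 10 counts in at least 1 library.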
